A study of Mus musculus with 18 samples.

Results

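The genes described here encode 5 proteins of the SOCS (suppressor of cytokine signalling) family, namely Cish, Socs1, Socs2, Socs3 and Socs5, and 5 adaptors and phosphatases that dampen immune receptor signalling, namely Sla, Inpp5d, Ptpn6, Dok1 and Dok2. They were picked out by gene symbol, with no threshold on a measured value, though earlier results of these data were known when the list was drawn up. The 10 genes had 17 probes among the 45281 on the array, and all 10 were among the 8985 genes tested, of 19057 with a probe. Total RNA from cultured mouse mast cells was hybridised to Illumina bead arrays, with 18 arrays in 6 groups of 3. The groups were Dnmt3a knockout (KO) mast cells left untreated or exposed to IgE and antigen for 4 h or 24 h, and wild-type (WT) mast cells in the same conditions. Dnmt3a encodes a DNA methyltransferase that sets methylation on unmethylated DNA. All cells came from female mice and all samples carry a 5 weeks label, which does not say whether it is the age of the mice or the time in culture. The sources used here do not say how the allele was deleted, in which cells, or how the mast cells were grown. KO cultures 3, 4 and 6 and WT cultures 6, 8 and 9 gave 1 array in each condition, and the labels do not state whether a culture came from 1 mouse, so that p-values measure the spread between these cultures. Slide 1 held KO culture 3 and WT culture 6, slide 2 held KO culture 4 and WT culture 8, and slide 3 held KO culture 6 and WT culture 9.

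Antigen that cross-links IgE on its receptor starts a cascade of tyrosine phosphorylation in mast cells, and the cytokines that follow signal through JAK kinases and STAT factors. SOCS proteins are made in response to STAT activity and feed back on it, by blocking JAK kinases, by covering receptor docking sites or by bringing in a ubiquitin ligase. The adaptors and phosphatases act nearer to the receptor: SHP-1 (Ptpn6) removes phosphate from tyrosines, SHIP-1 (Inpp5d) from the lipid PIP3, the Dok proteins recruit RasGAP, and SLAP (Sla) directs receptor components to degradation.

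Median probe intensities ran between 93.4 and 159 on the 18 arrays, and between 28.7% and 33.8% of probes were above an array's detection limit. The few arrays limit the precision. All 3 Dnmt3a probes were below the limit on every array, so that the genotype labels could not be checked against the deleted gene. Between 13 and 14 of 14 mast cell markers were detected on every array. Among markers of other cells, 7 of 8 for neutrophils, 8 of 9 for T and NK cells and all 3 for eosinophils were below the limit on all 18 arrays, while 4 of 5 basophil markers and 2 of 10 macrophage markers were kept for testing. So were 3 of 4 erythroid, 2 of 4 megakaryocyte, 1 of 7 dendritic cell, 1 of 4 B cell and 0 of 5 fibroblast markers. The summed linear signal of the T and NK cell list was 624 to 647 in untreated KO cells, 690 to 976 at 4 h and 677 to 1301 at 24 h in KO cells, against 622 to 637, 680 to 779 and 639 to 959 in WT cells, with Nkg7 its 1 kept gene. The basophil marker Cd200r3 fell at 24 h in WT cells (−0.86, adjusted p = 0.0381). The basophil protease Mcpt8 differed at 24 h by 1.75 in KO cells (adjusted p = 0.249) and 2.34 in WT cells (adjusted p = 0.106). The summed signal of the basophil list was 8159 to 11297 at 24 h in KO and 8220 to 11990 in WT cells, against 10302 to 14009 and 11833 to 15460 in untreated KO and WT cells. The macrophage list summed to 1167 to 1550 in untreated KO cells and 1249 to 1539 at 24 h, against 1008 to 1174 and 814 to 1169 in WT cells. Its kept genes were Adgre1, 1.07 higher in KO than in WT cells on culture means (adjusted p = 0.714), and Lyz2, which differed at 24 h by −0.99 in KO cells (adjusted p = 0.383) and −1.25 in WT cells (adjusted p = 0.215). The megakaryocyte list summed to 1742 to 3038 in untreated KO cells and 1174 to 1411 at 24 h, against 1988 to 2790 and 1561 to 1889 in WT cells. The erythroid list summed to 350 to 611 and 458 to 537 in KO cells, against 371 to 589 and 449 to 585 in WT cells. The part of these other cells in the results below was not tested. The arrays measured RNA from whole cultures, in which fewer cells of a kind and less RNA per cell cannot be told apart. The 4 h array of WT culture 9 stood apart. The 4 h changes of all genes in that culture had a slope of 0.399 on the mean KO changes, against 1.08 in WT culture 6 and 1.10 in WT culture 8. WT changes of the 10 genes that involve this array are given with and without it. On the 24 h array of KO culture 6 Socs3 was far from the other KO cultures, and the Socs3 results are given with and without that array.

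Promoter sequence bears on these genes because STAT factors bind TTCNNNGAA, and Cish and Socs3 are known STAT targets. RefSeq promoters on GRCm38.p6, from 250 bases before to 50 bases after the start site, were held for 5 of the 10 genes, namely Cish, Socs1, Socs3, Inpp5d and Ptpn6. The Cish window held 2 matches, which begin at positions 1 and 12 with the start site counted as position 1. The Socs3 window held 1, which begins 154 bases before the start site. The stretches are shown because they carry the only matches among the 5 windows, with the matches in capitals.
Cish, chr9:107296639-107296678, plus strand: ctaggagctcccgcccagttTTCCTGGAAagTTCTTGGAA
Socs3, chr11:117969492-117969540, minus strand: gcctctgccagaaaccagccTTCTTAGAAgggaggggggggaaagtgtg
The motif reads the same on both strands, so that 1 search covered both. Of all 32851 promoters in the table, 8.30% held at least 1 match and 0.457% at least 2. The windows of Socs1, Inpp5d and Ptpn6 do not hold these letters. CG pairs, the sites at which DNA methyltransferases act, numbered 11 in the Cish window, 18 in that of Socs1, 31 in that of Socs3, 6 in that of Inpp5d and 8 in that of Ptpn6, against a median of 7 over all promoters. A match is a description of the sequence and not a measured binding site, and methylation was not measured.

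Stimulation moved a small number of these genes past the threshold, which was an adjusted p of 0.05 over all genes (limma, Benjamini-Hochberg). Sla rose in every stimulated group against its untreated group, Cish fell between 4 h and 24 h in WT cells, and Socs5 was lower in untreated KO cells than in untreated WT cells. At 4 h against untreated, 1 of 10 genes passed in KO cells (0.812% of all genes) and 1 of 10 in WT cells (1.83%), and the gene was Sla in both. At 24 h against untreated, Sla was again the 1 gene that passed in KO cells (0.245% of all genes) and in WT cells (0.69%). Between 24 h and 4 h, 0 of 10 passed in KO cells (0.69% of all genes), where 2 had an unadjusted p under 0.05 (17.7% of all genes), and 1 of 10, Cish, passed in WT cells (5.46%). KO and WT cells were set against each other in each condition: 1 of 10, Socs5, passed in untreated cells (0.267% of all genes), 0 at 4 h (0.189%) and 0 at 24 h (0.278%). The unadjusted p of this contrast was under 0.05 for 2 genes in untreated cells (5.89% of all genes), 1 at 4 h (5%) and 3 at 24 h (4.94%). A single call is the smallest count above 0 that a list of 10 genes can give. Wherever 1 gene passed, its share was bound to exceed these background shares, and the excess is no result about these genes. Against untreated cells an unadjusted p under 0.05 was found for 5 genes in KO cells (16.9% of all genes) and 4 in WT cells (19.7%) at 4 h, and for 4 (13.7%) and 6 (15.7%) at 24 h; for WT cells at 24 h against 4 h it was found for 2 (25.2%), a share below that of all genes. The median log2 change of the 10 genes was 0.25 in KO cells and 0.03 in WT cells at 4 h, and −0.12 in KO cells and −0.33 in WT cells at 24 h, while the median over all genes lay between −0.04 and 0.00 in these 4 comparisons.

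Groups of 3 arrays that do not overlap are a coarser measure that needs no model. In KO cells at 4 h, 4 of 10 genes lay above their untreated arrays (9.27% of all genes), namely Cish, Sla, Ptpn6 and Dok2, and 1, Inpp5d, lay below (10.2%). In WT cells at 4 h the counts were 1 above, Sla (9.36%), and 0 below (10.1%). At 24 h, Sla, Ptpn6 and Dok2 lay above untreated arrays in both genotypes (3 of 10 each, against 8.49% of all genes in KO cells and 10.5% in WT cells). Inpp5d lay below in KO cells (1 of 10, against 9.53%), and Cish, Socs1 and Socs3 lay below in WT cells (3 of 10, against 13.5%). Between 24 h and 4 h, Sla was above (10% of all genes) and Cish below (10.4%) in KO cells, while 0 genes were above (13.4%) and Cish, Socs3 and Socs5 were below (13.5%) in WT cells. KO arrays lay below WT arrays for Socs5 and Sla in untreated cells (6.27%), for Socs5 at 4 h (4.62%) and for Socs5 and Inpp5d at 24 h (6.46%). They lay above for Dok2 in untreated cells (4.77%), for 0 genes at 4 h (4.35%) and for Socs3 at 24 h (5.95%).

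**Figure D1:**
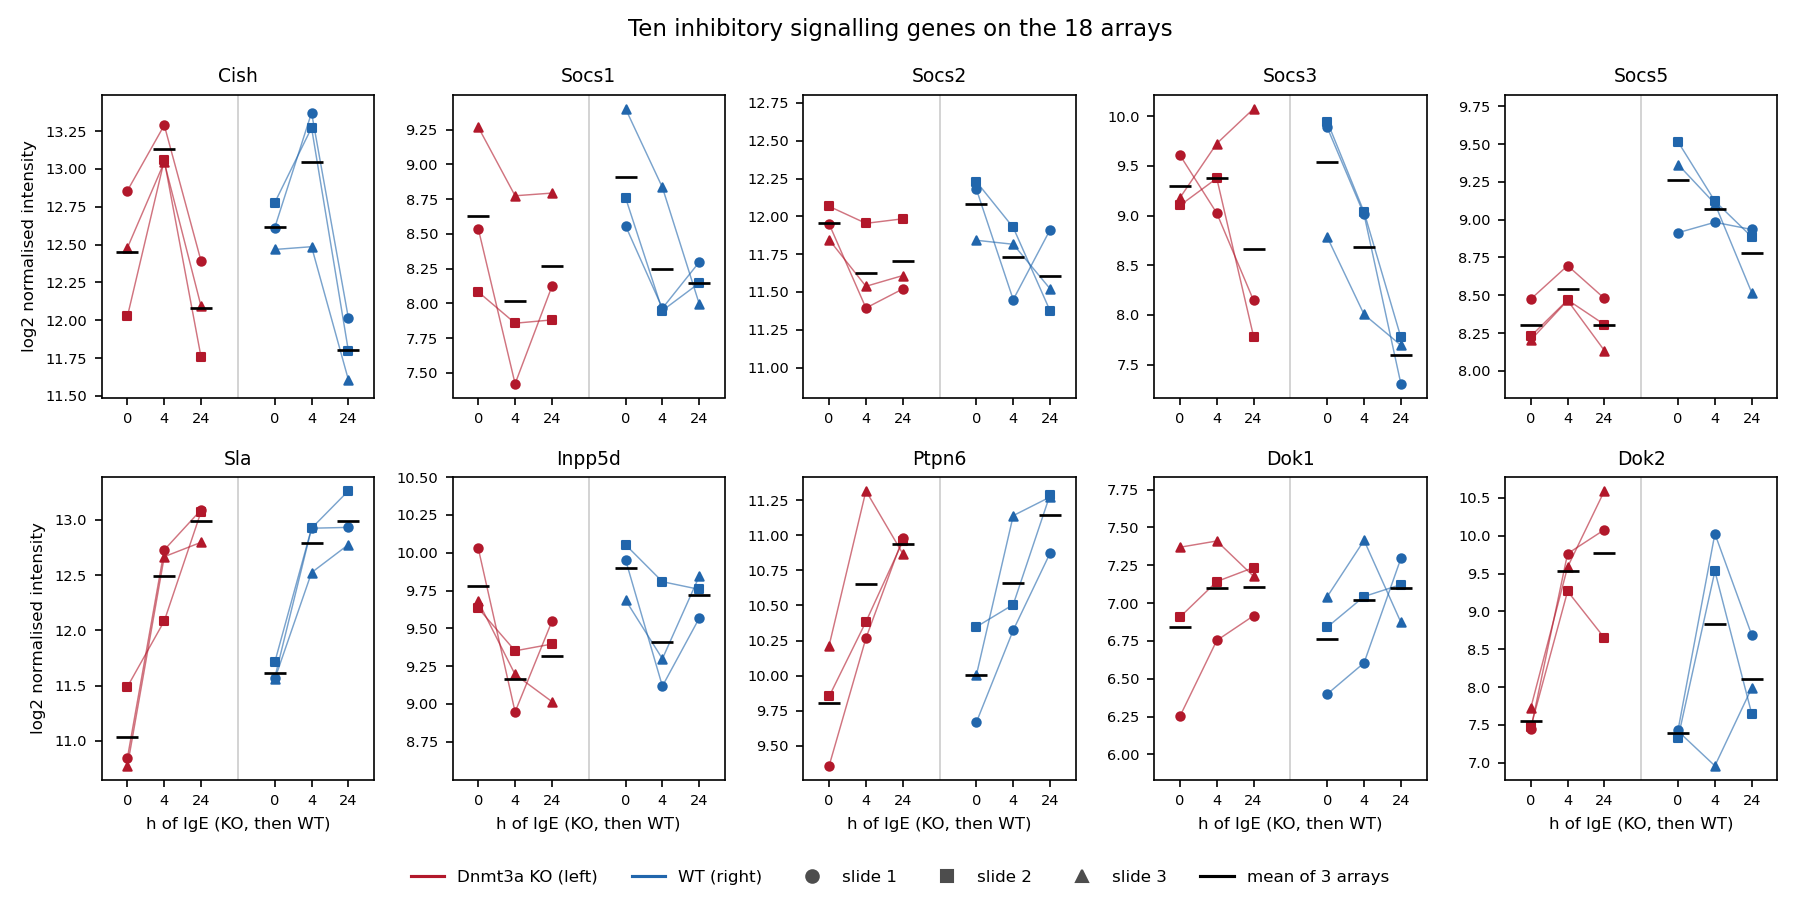
Log2 normalised intensity (y axis) of the 10 genes at 0 h (untreated), 4 h and 24 h of IgE and antigen (x axis), with KO cultures on the left of each panel in red and WT cultures on the right in blue. Each line joins the 3 arrays of a culture, marker shapes show the slide, and black bars are means of 3 arrays. Sla was higher on all 6 arrays at 24 h than on any untreated array, and Dok2 on the 4 h array of WT culture 9 stayed at 6.96.

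Arrays of 1 culture deviated together from their group means, as did most pairs of KO and WT arrays on 1 slide. A fit with the culture as a block moved the counts. In that fit 3 of 10 genes passed in KO cells at 4 h (Cish, Dok2 and Sla, all higher), where 4.62% of all genes passed. At 24 h against untreated, 3 genes passed in KO cells (3.08% of all genes), namely Dok2, Ptpn6 and Sla, all higher. In WT cells 4 genes passed (4.65%), with Ptpn6 and Sla higher and Cish and Socs3 lower. Cish alone passed between 24 h and 4 h in KO cells (6.39% of all genes), and it was lower. The counts of 1 in WT cells at 4 h (8.56% of all genes) and between 24 h and 4 h (17.9%) were the same in both fits.

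**Figure D2:**
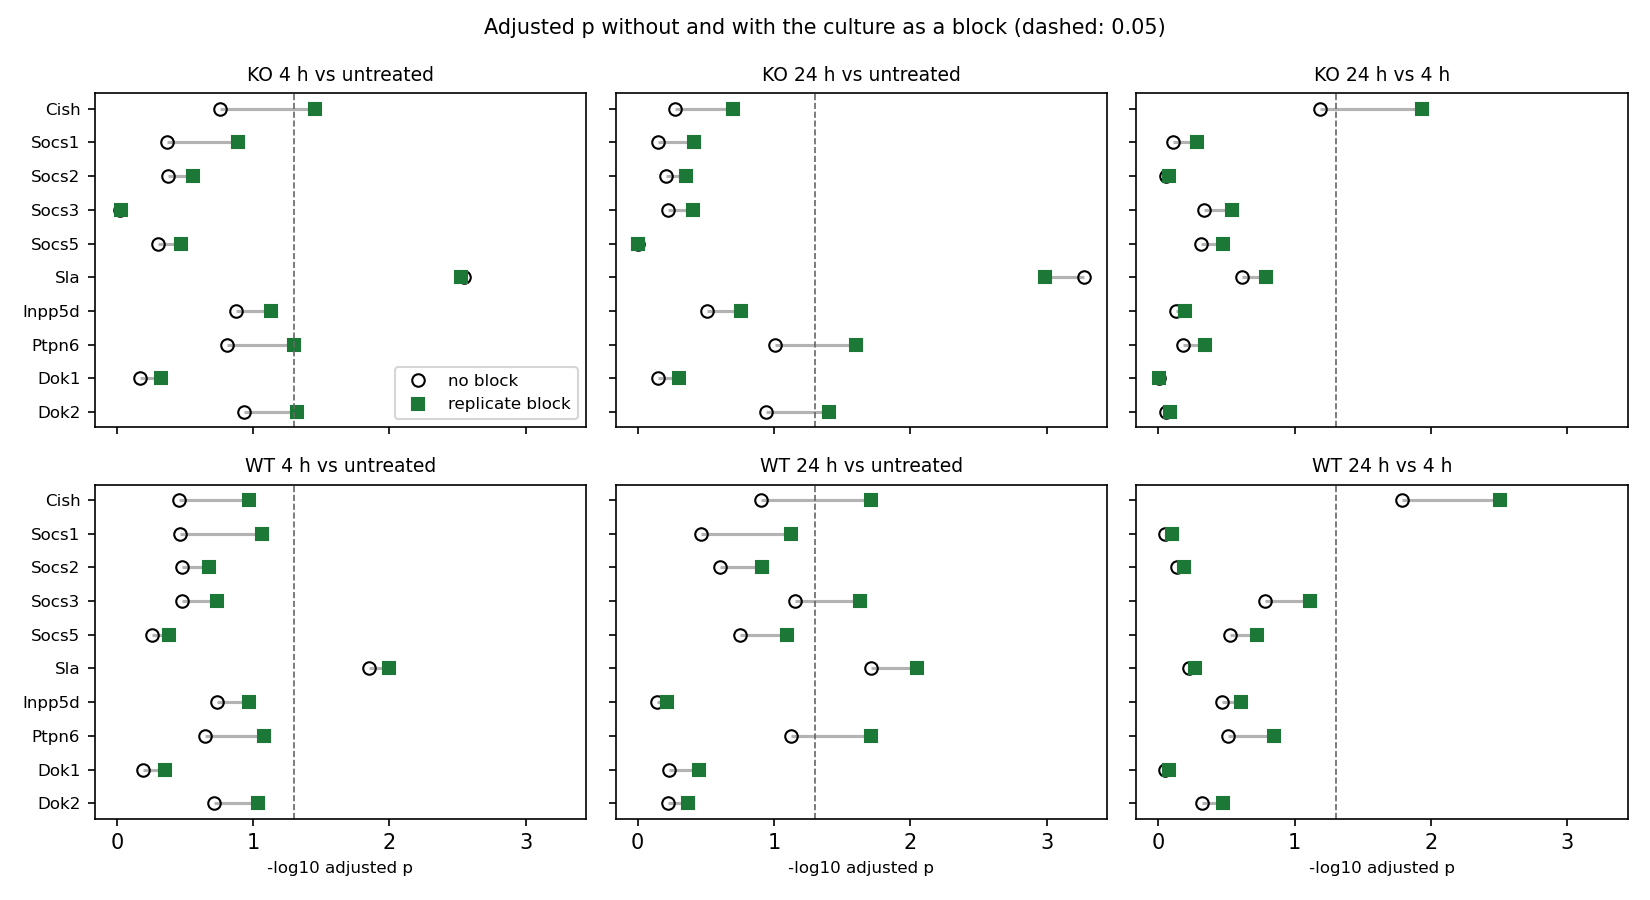
Adjusted p of the 10 genes on a −log10 scale (x axis) in 6 comparisons over time, without a block (open circles) and with the culture as a block (green squares); the dashed line is the threshold of 0.05 and higher values lie to the right. Sla was past the line in both fits at 4 h and 24 h in both genotypes, and Cish crossed it with the block in KO cells at 4 h (0.0353) and between 24 h and 4 h (0.0117).

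Cish encodes CIS, a SOCS protein that STAT5 induces and that binds activated cytokine receptors. Its log2 normalised intensities were 12.86, 12.03 and 12.48 in untreated KO cultures 3, 4 and 6, 13.29, 13.06 and 13.04 at 4 h, and 12.39, 11.75 and 12.09 at 24 h. In WT cultures 6, 8 and 9 they were 12.61, 12.78 and 12.47 untreated, 13.37, 13.27 and 12.49 at 4 h, and 12.01, 11.80 and 11.61 at 24 h. All 6 cultures were thus lower at 24 h than at 4 h, and the 24 h values lay below the 4 h values without overlap in both genotypes. In WT cells Cish fell by 1.24 on the log2 scale between 4 h and 24 h (SE 0.244, adjusted p = 0.0163, limma). That is a 2.36-fold lower level at 24 h than at 4 h. The same difference in KO cells was −1.05 (SE 0.244, adjusted p = 0.0648), and with the culture as a block it passed the threshold (adjusted p = 0.0117). Against untreated cells, the 4 h difference was 0.68 in KO cells (adjusted p = 0.176, and 0.0353 with the block) and 0.42 in WT cells (adjusted p = 0.353). On the 4 h array of WT culture 9 Cish was 0.02 above the untreated array, against 0.76 and 0.49 in WT cultures 6 and 8. At 24 h against untreated the difference was −0.37 in KO cells (adjusted p = 0.535) and −0.81 in WT cells (adjusted p = 0.123, and 0.0193 with the block), where all WT values at 24 h lay below the untreated ones. The call between 24 h and 4 h in WT cells was lost without WT culture 6 (adjusted p = 0.114) or WT culture 8 (0.286). It was kept without the 4 h array of WT culture 9 (log2 −1.52, adjusted p = 0.00168). With median scaling, the adjusted p was 0.0507.

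Socs1 encodes an inhibitor of JAK kinases that restrains interferon-gamma signalling. It measured 8.54, 8.08 and 9.27 (log2) in untreated KO cultures 3, 4 and 6, 7.42, 7.86 and 8.77 at 4 h, and 8.12, 7.88 and 8.79 at 24 h. WT cultures 6, 8 and 9 had 8.56, 8.76 and 9.40 untreated, 7.97, 7.95 and 8.83 at 4 h, and 8.30, 8.15 and 8.00 at 24 h. All 6 cultures had lower values at 4 h and at 24 h than untreated, but the cultures of slide 3 started higher than the others in both genotypes and the 4 h groups overlapped the untreated ones. At 24 h the WT values lay below the untreated ones without overlap, and the KO values overlapped. The 4 h difference was −0.61 in KO cells (SE 0.373, adjusted p = 0.431) and −0.66 in WT cells (adjusted p = 0.345). The 24 h difference was −0.36 in KO cells (adjusted p = 0.706) and −0.76 in WT cells (adjusted p = 0.342). None of these passed in either fit.

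Socs2, which limits growth hormone receptor signalling and is itself a STAT5 target, was measured by 1 of its 2 probes, the other being below the limit on all arrays. KO cultures 3, 4 and 6 had log2 values of 11.95, 12.07 and 11.85 untreated, 11.39, 11.95 and 11.54 at 4 h, and 11.52, 11.98 and 11.61 at 24 h. The values in WT cultures 6, 8 and 9 were 12.18, 12.23 and 11.84 untreated, 11.45, 11.93 and 11.82 at 4 h, and 11.91, 11.38 and 11.52 at 24 h. Every stimulated array was below the untreated array of its culture, by 0.03 (WT culture 9, 4 h) to 0.85 (WT culture 8, 24 h), while the groups overlapped in all comparisons. The differences at 4 h were −0.33 in KO cells (SE 0.195, adjusted p = 0.424) and −0.35 in WT cells (adjusted p = 0.332). At 24 h they were −0.25 in KO cells (adjusted p = 0.615) and −0.48 in WT cells (adjusted p = 0.248).

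Socs3 encodes the SOCS protein that binds gp130 and restrains IL-6 and STAT3 signalling. Values in KO cultures 3, 4 and 6 were 9.61, 9.10 and 9.18 (log2) untreated, 9.03, 9.38 and 9.73 at 4 h, and 8.15, 7.78 and 10.08 at 24 h. WT cultures 6, 8 and 9 measured 9.89, 9.95 and 8.78 untreated, 9.01, 9.04 and 8.01 at 4 h, and 7.31, 7.77 and 7.70 at 24 h. All 3 WT cultures were lower at 24 h than untreated, without overlap, and so were KO cultures 3 and 4, whereas KO culture 6 was higher. In WT cells the 24 h difference of −1.95 missed the threshold (SE 0.476, adjusted p = 0.0698) and passed it with the culture as a block (adjusted p = 0.0234). It also passed without the 24 h array of KO culture 6, which entered the common estimate of spread (adjusted p = 0.0302). That array was picked out by its own Socs3 value, and leaving it out lowers the spread of Socs3. This pass is therefore no separate support. In KO cells the 24 h difference was −0.63 (adjusted p = 0.602), and −1.33 without the array of KO culture 6 (adjusted p = 0.26). The 4 h difference was 0.08 in KO cells (adjusted p = 0.954) and −0.86 in WT cells (adjusted p = 0.334). Between 24 h and 4 h it was −0.71 in KO cells (adjusted p = 0.464) and −1.09 in WT cells (adjusted p = 0.166), with WT values that did not overlap.

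Socs5, a SOCS protein linked to IL-4 and EGF receptor signalling, was measured by 1 of 2 probes, the other being below the limit on all arrays. It had log2 values of 8.47, 8.23 and 8.20 in untreated KO cultures 3, 4 and 6, 8.70, 8.47 and 8.47 at 4 h, and 8.48, 8.31 and 8.13 at 24 h. The corresponding values were 8.91, 9.51 and 9.36 in untreated WT cultures 6, 8 and 9, 8.98, 9.12 and 9.11 at 4 h, and 8.93, 8.89 and 8.52 at 24 h. All KO values lay below all WT values in each of the 3 conditions. In untreated cells Socs5 averaged 8.30 ± 0.15 in KO cultures and 9.26 ± 0.31 in WT cultures (SD, n = 3 each), a fall of 0.96 on the log2 scale that passed the threshold (−0.96, SE 0.168, adjusted p = 0.0173, limma). KO cells had 0.514 times the WT level. Within slides 1, 2 and 3 the KO minus WT difference was −0.44, −1.28 and −1.16. At 4 h the difference was −0.53 (adjusted p = 0.573) and at 24 h −0.47 (adjusted p = 0.709), with the same sign on all 3 slides at both times. The call in untreated cells was lost without KO culture 4 (adjusted p = 0.174), KO culture 6 (0.138), WT culture 8 (0.32) or WT culture 9 (0.138), and with median scaling it had an adjusted p of 0.601. On the means of each culture's 3 arrays, Socs5 differed by −0.65 (SE 0.124, adjusted p = 0.229), with KO cultures at 8.55, 8.33 and 8.27 and WT cultures at 8.94, 9.17 and 9.00. Stimulation left its level in KO cells at a log2 difference of 0.24 at 4 h (adjusted p = 0.495) and 0.00 at 24 h (adjusted p = 0.995), against −0.19 (adjusted p = 0.557) and −0.48 (adjusted p = 0.177) in WT cells.

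**Figure D3:**
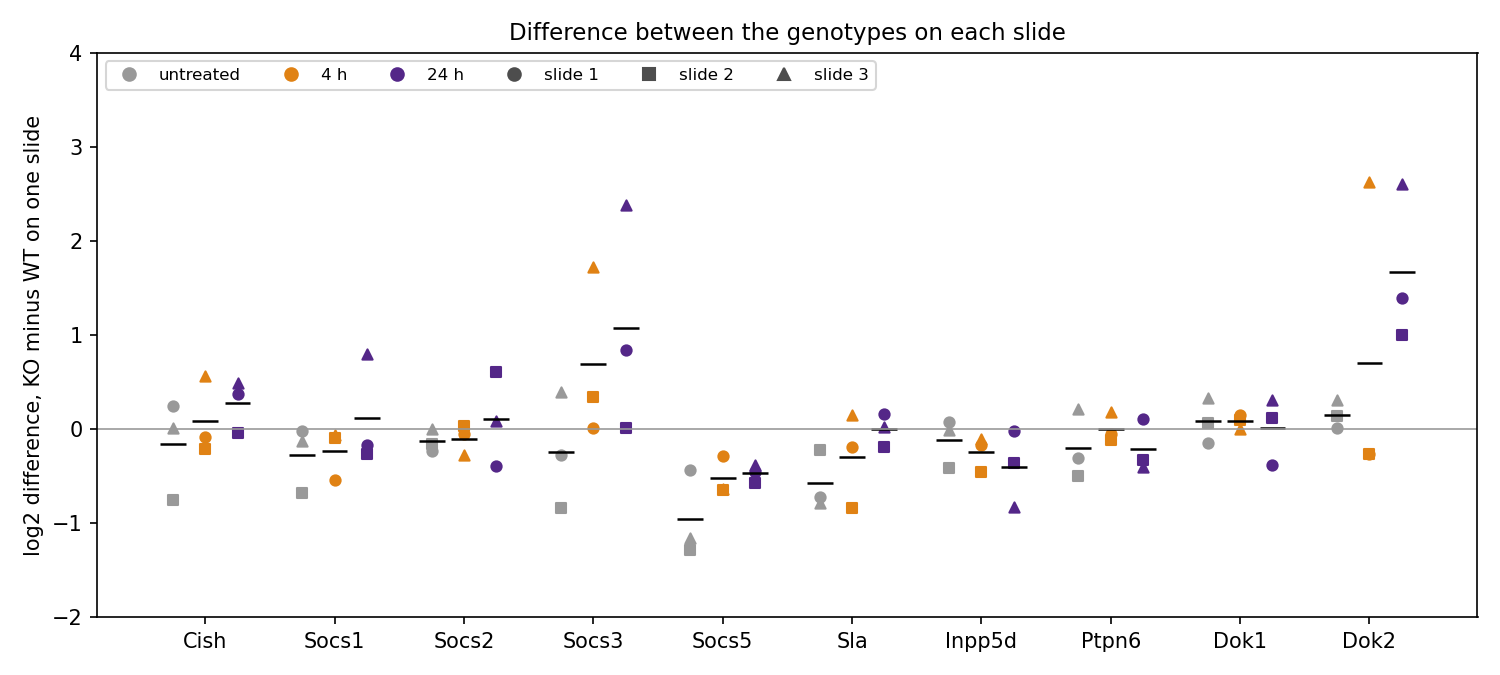
KO minus WT difference of log2 normalised intensity (y axis) for the 10 genes (x axis), 1 point per slide and condition: colours show the condition, shapes the slide, and black bars the mean of 3 slides. Socs5 points lie between −1.28 and −0.29, all below 0, while Socs3 and Dok2 reach 2.38 and 2.60 on slide 3 at 24 h. The Dok2 point of 2.63 on slide 3 at 4 h rests on the WT array that stood apart.

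Sla encodes SLAP, an adaptor that resembles Src kinases without a kinase domain and lowers antigen receptor levels in lymphocytes. Log2 values of its brightest probe were 10.85, 11.49 and 10.77 in untreated KO cultures 3, 4 and 6, 12.73, 12.09 and 12.67 at 4 h, and 13.09, 13.08 and 12.80 at 24 h. Those of WT cultures 6, 8 and 9 were 11.57, 11.71 and 11.56 untreated, 12.93, 12.93 and 12.52 at 4 h, and 12.93, 13.26 and 12.78 at 24 h. Every stimulated array was above every untreated array of its genotype. At 4 h Sla rose by 1.46 on the log2 scale in KO cells (SE 0.214, adjusted p = 0.00285) and by 1.18 in WT cells (SE 0.214, adjusted p = 0.0142). At 24 h it rose by 1.95 in KO cells (adjusted p = 0.000528) and by 1.38 in WT cells (adjusted p = 0.0196). These are rises of 2.74-fold and 3.87-fold in KO cells and of 2.26-fold and 2.60-fold in WT cells. By culture, the 4 h change was 1.88, 0.59 and 1.89 in KO cultures and 1.35, 1.21 and 0.97 in WT cultures, and the 24 h change was 2.24, 1.58 and 2.02 against 1.36, 1.55 and 1.22. The rise in KO cells at 24 h passed whichever culture was left out, with adjusted p values up to 0.0421 over all settings. The rise in KO cells at 4 h was lost without KO culture 3 (adjusted p = 0.154) or KO culture 6 (0.0754). In WT cells the 4 h call was lost without WT culture 6 (adjusted p = 0.144) or WT culture 8 (0.363), and the 24 h call without WT culture 6, 8 or 9 (0.14, 0.275 and 0.0772). Between 24 h and 4 h the difference was 0.49 in KO cells (adjusted p = 0.243) and 0.20 in WT cells (adjusted p = 0.601).

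Sla had 2 more probes above the limit on all 18 arrays, which correlated with the first at a Pearson r of 0.965 and 0.808 over the 18 arrays (the arrays share cultures). Probe ILMN_1216337 rose by 1.49 at 4 h and 1.95 at 24 h in KO cells (adjusted p = 0.00842 and 0.00221 over all kept probes). In WT cells it rose by 1.65 at 4 h and 2.02 at 24 h (adjusted p = 0.00664 and 0.0014). Probe ILMN_3043669 rose at 24 h in WT cells (1.62, adjusted p = 0.0376) and missed the threshold at 24 h in KO cells (1.48, adjusted p = 0.0725) and at 4 h (0.74 in KO cells, adjusted p = 0.26, and 0.70 in WT cells, adjusted p = 0.256). All 3 probes were higher on average in stimulated than in untreated cells of both genotypes, by different amounts. The KO minus WT difference of the brightest probe was −0.58 in untreated cells, where the groups did not overlap (adjusted p = 0.646), −0.30 at 4 h (adjusted p = 0.98) and 0.00 at 24 h (adjusted p = 0.999). At 24 h the other 2 probes differed by −0.50 and −0.59 (adjusted p = 0.974 and 0.999).

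**Figure D4:**
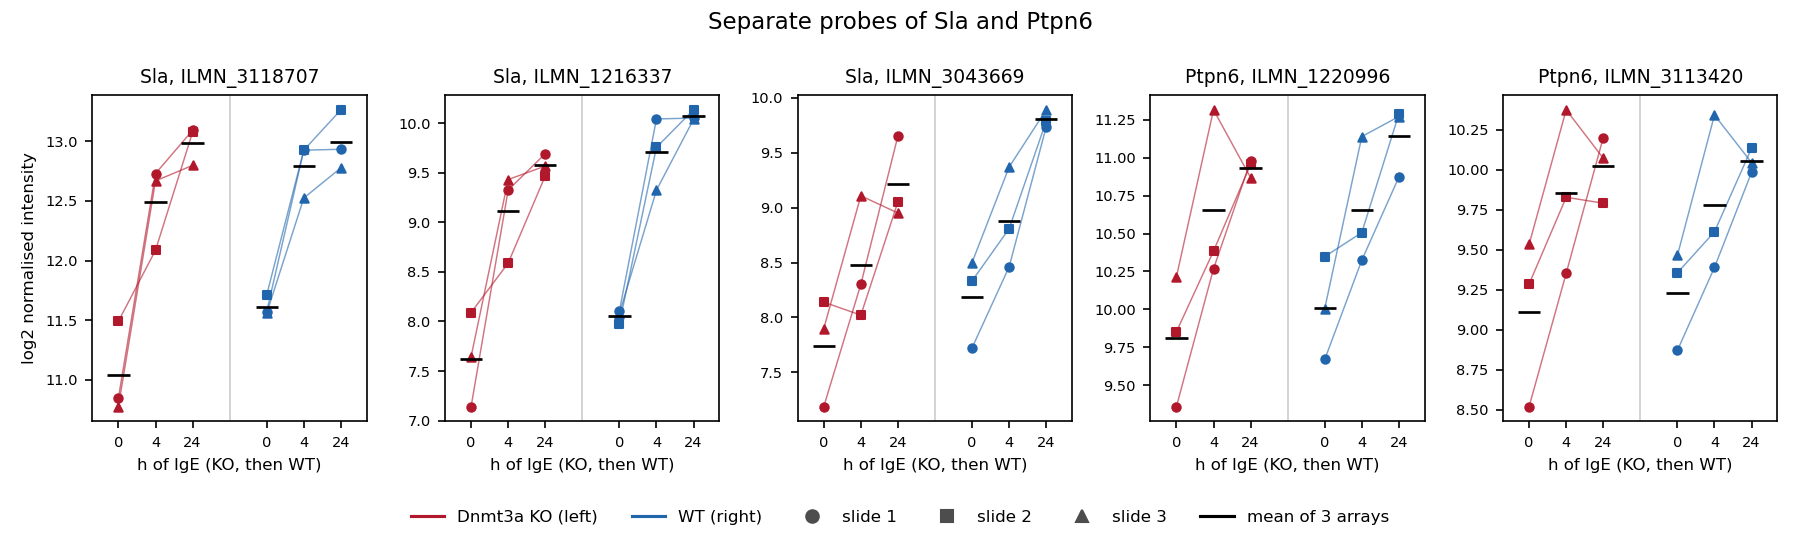
Log2 normalised intensity (y axis) of the 3 Sla probes and the 2 Ptpn6 probes above the detection limit at 0 h (untreated), 4 h and 24 h of IgE and antigen (x axis), KO cultures in red on the left and WT cultures in blue on the right of each panel. Lines join the arrays of a culture and black bars are means of 3 arrays; all 5 probes had higher 24 h means than untreated means in both genotypes, by 0.82 to 2.02.

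Dok2 encodes an adaptor of the Dok family that recruits RasGAP and so restrains Ras. Its log2 values were 7.44, 7.47 and 7.72 in untreated KO cultures 3, 4 and 6, 9.76, 9.27 and 9.59 at 4 h, and 10.08, 8.65 and 10.59 at 24 h. WT cultures 6, 8 and 9 were at 7.44, 7.33 and 7.42 untreated, at 10.03, 9.53 and 6.96 at 4 h, and at 8.69, 7.65 and 7.99 at 24 h. Untreated cultures were close together, 5 of 6 cultures were higher at 4 h, and WT culture 9 was lower on the 4 h array that stood apart for all genes. The difference at 4 h was 1.99 in KO cells (SE 0.598, adjusted p = 0.117, and 0.048 with the block) and 1.44 in WT cells (adjusted p = 0.195). Without the 4 h array of WT culture 9, Dok2 passed at 4 h in KO cells (1.99, adjusted p = 0.0122) and in WT cells (2.39, adjusted p = 0.00391), where only 2 arrays were then left. At 24 h against untreated the difference was 2.23 in KO cells, a 4.68-fold higher level (adjusted p = 0.114, and 0.0394 with the block), and 0.71 in WT cells (adjusted p = 0.6). Without that 4 h array the KO value at 24 h passed as well (adjusted p = 0.018), although no KO array was left out. WT cultures 6 and 8 were 1.34 and 1.88 lower at 24 h than at 4 h, and WT culture 9 was 1.03 higher; the WT difference was −0.73 (adjusted p = 0.479), and −1.67 without the 4 h array of culture 9 (adjusted p = 0.0165). Between 24 h and 4 h the KO difference was 0.23 (adjusted p = 0.886). KO cells were 1.66 higher than WT cells at 24 h, with 1.39, 1.001 and 2.60 on slides 1, 2 and 3, and this missed the threshold (adjusted p = 0.71), with groups that overlap at 8.65 in KO culture 4 and 8.69 in WT culture 6.

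Dok1, another adaptor of that family, was close to the detection limit. The tested probe was above it on 14 of 18 arrays, another on 11 and the last on 0. Log2 values of the tested probe were 6.25, 6.91 and 7.37 in untreated KO cultures 3, 4 and 6, 6.75, 7.14 and 7.41 at 4 h, and 6.92, 7.24 and 7.18 at 24 h. In WT cultures 6, 8 and 9 they were 6.40, 6.84 and 7.04 untreated, 6.60, 7.04 and 7.41 at 4 h, and 7.30, 7.12 and 6.87 at 24 h. The groups overlapped in every comparison. The 4 h difference was 0.26 in both genotypes (SE 0.274, adjusted p = 0.676 in KO cells and 0.639 in WT cells). The 24 h difference was 0.27 in KO cells (adjusted p = 0.706) and 0.34 in WT cells (adjusted p = 0.591).

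Ptpn6 encodes SHP-1, the phosphatase that inhibitory receptors recruit to quench tyrosine phosphorylation. KO cultures 3, 4 and 6 had log2 values of 9.36, 9.85 and 10.21 untreated, 10.27, 10.38 and 11.32 at 4 h, and 10.98, 10.96 and 10.87 at 24 h. WT cultures 6, 8 and 9 had 9.67, 10.35 and 10.004 untreated, 10.32, 10.51 and 11.14 at 4 h, and 10.87, 11.29 and 11.27 at 24 h. All 6 cultures were higher at 4 h and at 24 h than untreated, and the 24 h values lay above the untreated ones without overlap in both genotypes. The 24 h difference was 1.13 in KO cells (SE 0.289, adjusted p = 0.0979) and 1.14 in WT cells (SE 0.289, adjusted p = 0.0749). With the culture as a block Ptpn6 was past the threshold at 24 h in both genotypes, at an adjusted p of 0.0249 in KO cells and 0.0193 in WT cells. Levels at 24 h were 2.18 times the untreated ones in KO cells and 2.20 times in WT cells. The 4 h difference was 0.85 in KO cells (adjusted p = 0.156, and 0.05 with the block, which just missed the threshold) and 0.65 in WT cells (adjusted p = 0.226). A second Ptpn6 probe, with an r of 0.944 to the first over the 18 arrays, differed at 24 h by 0.91 in KO cells (adjusted p = 0.187) and 0.82 in WT cells (adjusted p = 0.212).

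Inpp5d encodes SHIP-1, the lipid phosphatase that sets the threshold of mast cell degranulation. Its log2 values were 10.03, 9.63 and 9.68 in untreated KO cultures 3, 4 and 6, 8.95, 9.35 and 9.20 at 4 h, and 9.55, 9.40 and 9.02 at 24 h. WT cultures 6, 8 and 9 measured 9.95, 10.05 and 9.69 untreated, 9.12, 9.81 and 9.30 at 4 h, and 9.57, 9.76 and 9.84 at 24 h. All 6 cultures were lower at 4 h than untreated, without overlap in KO cells and with overlap in WT cells. The 4 h difference was −0.62 in KO cells (SE 0.197, adjusted p = 0.135) and −0.49 in WT cells (adjusted p = 0.183). With the culture as a block the adjusted p was 0.0735 in KO cells. At 24 h the difference was −0.46 in KO cells (adjusted p = 0.31), where the groups did not overlap, and −0.17 in WT cells (adjusted p = 0.717). KO cells were 0.40 lower than WT cells at 24 h (adjusted p = 0.999), without overlap between the groups.

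**Figure D5:**
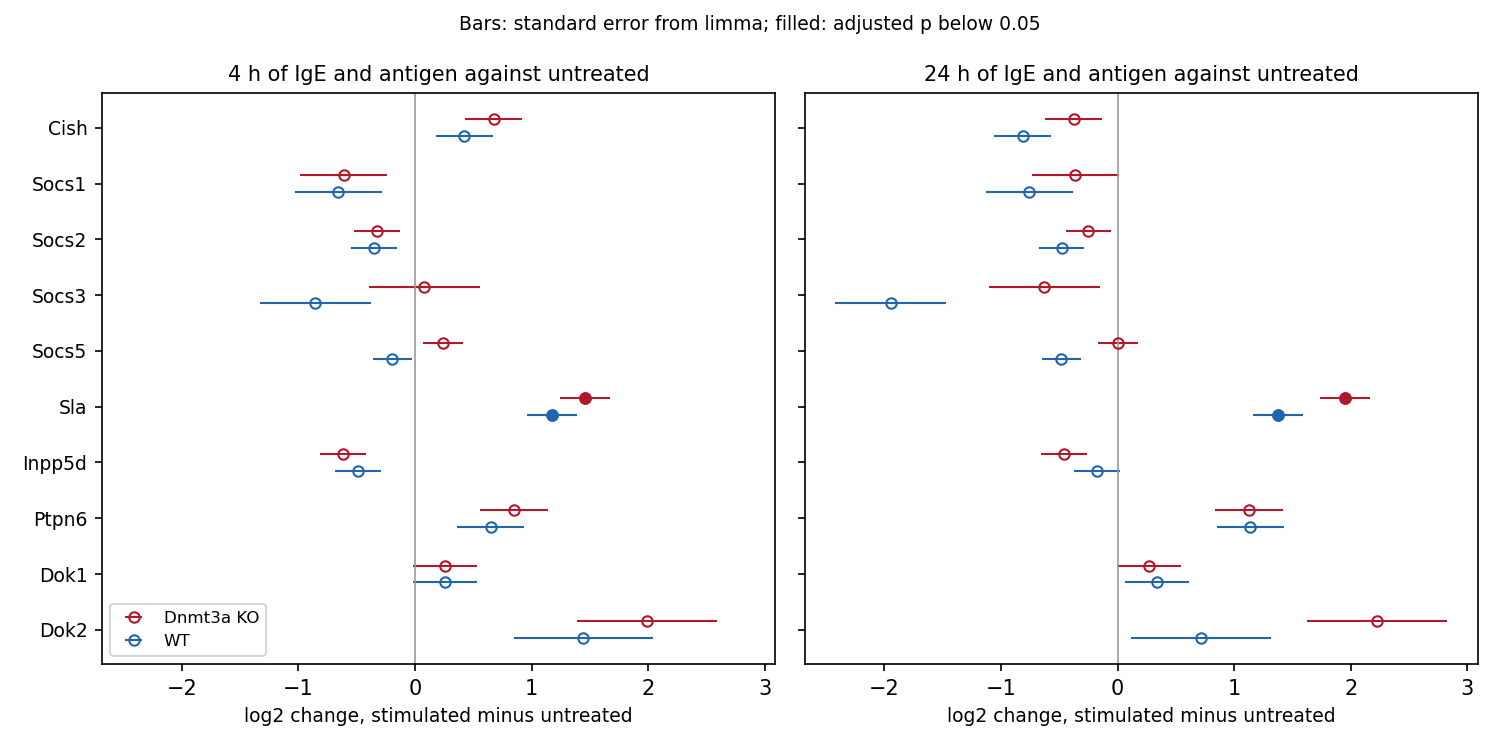
Log2 change of each gene (y axis lists the genes) after 4 h (left) and 24 h (right) of IgE and antigen against untreated cells (x axis), KO cells in red above WT cells in blue. Points are limma estimates from 3 arrays per group, bars are standard errors, and filled points are past an adjusted p of 0.05. Sla was the filled gene in all 4 comparisons, between 1.18 and 1.95.

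Without the 4 h array of WT culture 9, 2 WT arrays were left at 4 h and the WT changes at that time shifted. Sla rose by 1.31 (adjusted p = 0.00402) and Dok2 by 2.39, as above, and these were the 2 genes past the threshold. Cish differed by 0.70 (adjusted p = 0.0612), Socs1 by −0.95 (0.133), Socs2 by −0.40 (0.272) and Socs3 by −0.52 (0.556). The difference was −0.21 for Socs5 (adjusted p = 0.519), −0.43 for Inpp5d (0.226), 0.41 for Ptpn6 (0.412) and 0.06 for Dok1 (0.916). Between 24 h and 4 h, Cish and Dok2 passed, both lower at 24 h. The other 8 genes then lay between −1.43 (Socs3, adjusted p = 0.0678) and 0.73 (Ptpn6, adjusted p = 0.11). The share of all genes that passed in this fit is not given, so the numbers of genes that passed are no result about this set.

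Whether the response itself differed between the genotypes was tested for every gene as the KO change minus the WT change. At 4 h, 0 of 10 genes passed (0% of all genes, limma), and at 24 h 0 of 10 passed (0% of all genes). No gene of the 10 had an unadjusted p under 0.05 in either test, against 1.06% and 1.78% of all genes. At 24 h the difference in response was 1.51 for Dok2 (SE 0.846, unadjusted p = 0.0931) and 1.32 for Socs3 (SE 0.673, unadjusted p = 0.0682), with an adjusted p close to 1 for both. Without the 24 h array of KO culture 6 the value of Socs3 was 0.61 (SE 0.49). For Sla it was 0.57 at 24 h (SE 0.303, unadjusted p = 0.077) and 0.28 at 4 h (SE 0.303). The other Sla probes gave −0.07 and −0.14 at 24 h, so that the 3 probes did not share a sign. In the contrast of KO with WT cells, the genes other than Socs5 lay between −0.58 (Sla) and 0.15 (Dok2) in untreated cells. They lay between −0.30 (Sla) and 0.70 (Dok2) at 4 h, with Socs3 at 0.69, and between −0.40 (Inpp5d) and 1.66 (Dok2) at 24 h, with Socs3 at 1.08 (adjusted p of 0.646 or more for each). Without the 4 h array of WT culture 9 the Dok2 difference at 4 h was −0.24, and without the 24 h array of KO culture 6 the Socs3 difference at 24 h was 0.37. On the means of each culture's arrays, 0 of 10 genes passed between KO and WT (0.1% of all genes), and 2 had an unadjusted p under 0.05 (6.05% of all genes), Socs5 and Dok2. The Dok2 culture means were 9.09, 8.46 and 9.30 in KO cultures and 8.72, 8.17 and 7.46 in WT cultures, which overlap.

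Calls in the lists below should be set against the share of all genes that passed. Without a block it was 0.812% in KO cells and 1.83% in WT cells at 4 h, and 0.245% and 0.69% at 24 h. Between 24 h and 4 h it was 0.69% and 5.46%. With the culture as a block it was 4.62% and 8.56%, 3.08% and 4.65%, and 6.39% and 17.9% for the same comparisons. Of the other SOCS genes on the array, 2 of 3 were tested, Socs4 and Socs6. Socs4 differed at 4 h by −0.64 in KO cells (adjusted p = 0.188) and −0.39 in WT cells (adjusted p = 0.394). Socs6 was 0.50 lower at 24 h than at 4 h in WT cells (adjusted p = 0.068), which passed with the culture as a block. Of 22 tested inhibitory enzymes and adaptors outside the 10 genes, Ubash3b, a phosphatase that acts on Syk, was the only call without a block, lower at 24 h than at 4 h in WT cells (−0.82, adjusted p = 0.021). Ptpn22, a lymphoid phosphatase, had the largest change at 4 h, 2.18 in KO cells (adjusted p = 0.181) and 1.35 in WT cells (adjusted p = 0.362), and the KO change passed with the culture as a block. That block also brought past the threshold Pias3, a STAT inhibitor, lower at 4 h in WT cells (−0.52, adjusted p = 0.0401), and Ptpn12, lower at 24 h than at 4 h in KO cells (−0.49, adjusted p = 0.0494). In WT cells at 24 h against 4 h it gave 4 calls of 22, near the 17.9% of all genes. Csk and Pias3 were higher and Ptpn1 and Ubash3b lower. The median log2 change of this list at 4 h was −0.02 in KO cells and −0.01 in WT cells, close to that of all genes. Of 13 tested inhibitory receptors, the 1 call at 4 h in each genotype without a block was Fcgr2b, the inhibitory IgG receptor that recruits SHIP-1. Fcgr2b fell by 1.47 in KO cells (adjusted p = 0.0255) and by 1.68 in WT cells (adjusted p = 0.0106) at 4 h. It was higher again at 24 h than at 4 h, by 1.32 in KO cells (adjusted p = 0.0483) and 1.59 in WT cells (adjusted p = 0.0147), where Lair1, a collagen receptor, rose too (0.78, adjusted p = 0.0271). With the culture as a block, 2 receptors passed at 4 h in each genotype, Fcgr2b with Cd300a (−0.59 in KO cells, adjusted p = 0.0376) or with Cd33 (1.26 in WT cells, adjusted p = 0.0426). At 24 h against untreated it gave 3 calls in KO cells, with Cd300a and Lilrb4a lower and Pilra higher, and 2 in WT cells, Cd300a and Lilrb4a, both lower. At 24 h against 4 h it gave 3 in KO cells, with Fcgr2b higher and Ceacam1 and Lilrb4a lower, and 4 in WT cells, with Fcgr2b, Lair1 and Milr1 higher and Lilrb4a lower. The receptors showed a median change of −0.03 in KO cells and −0.09 in WT cells at 4 h.

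On the cytokine side of the pathway, 8 ligands that signal through JAK kinases were tested. At 4 h 2 of 8 rose in KO cells (0.812% of all genes) and 1 of 8 in WT cells (1.83%). With the culture as a block 5 and 4 passed (4.62% and 8.56% of all genes). Il13, a type 2 cytokine, rose by 3.35 in KO cells (adjusted p = 0.0031) and 2.96 in WT cells (adjusted p = 0.0106). Csf2, which encodes GM-CSF, was not above background in untreated cells and was at least 26.4-fold higher at 4 h in KO cells (adjusted p = 0.0282), a bound that sets the mean 4 h level against the lowest signal above background. In WT cells Il13 and Il6 fell between 4 h and 24 h, by 2.36 and 1.65 (adjusted p = 0.019 and 0.0492). With the block, 3 ligands in KO cells and 4 in WT cells were lower at 24 h than at 4 h, and Lif in both genotypes and Il13 in KO cells were higher at 24 h than untreated. The median log2 change of the ligands at 4 h was 1.71 in KO cells and 1.24 in WT cells. Il3 and Csf2 were detected on no untreated array and were kept for testing only through stimulated arrays. The filter thus favoured ligands that are high after stimulation. The ligand counts, the medians and the adjusted p of Csf2 are a description only. Of 14 tested receptors, Il4ra, the IL-4 receptor chain, fell at 4 h in WT cells by 1.08 (adjusted p = 0.0455), and its difference in KO cells was −0.98 (adjusted p = 0.087, and 0.0381 with the block, which also gave Il4ra lower at 24 h in both genotypes). The other receptor calls were Il10ra, 1.29 lower at 24 h than at 4 h in WT cells (adjusted p = 0.0461), and Csf2ra, 1.12 higher in KO than in WT cells at 24 h (adjusted p = 0.0311). Of 9 tested JAK and STAT genes, Stat4 fell by 1.50 at 4 h in WT cells (adjusted p = 0.00569), and its difference of −0.997 in KO cells missed the threshold (adjusted p = 0.0543, and 0.0322 with the block). It rose by 1.49 between 4 h and 24 h in WT cells (adjusted p = 0.00929). The block added Stat3, lower at 24 h in WT cells (−0.56, adjusted p = 0.0475), and Jak1, lower at 24 h than at 4 h in WT cells (−0.51, adjusted p = 0.0498). Among 10 tested STAT5 targets, Pim3, a survival kinase, was the 1 call at 4 h in each genotype, higher by 1.91 in KO cells (adjusted p = 0.0123) and 1.43 in WT cells (adjusted p = 0.0405), and 2 and 3 of the list passed with the block, Ccnd2 with Pim3 in both and Bcl2l1 in WT cells. At 24 h the block gave Pim3 higher and Mcl1 lower in both genotypes and Pim1 lower in WT cells. At 24 h against 4 h it gave Ccnd2 and Pim3 lower in WT cells, 2 of 10 against 17.9% of all genes. Of 15 tested activating components next to the IgE receptor, 2 passed without a block, both lower at 24 h than at 4 h in WT cells. They were Lat, a scaffold of the receptor cascade (−0.92, adjusted p = 0.0169), and Gab2, an adaptor (adjusted p = 0.023), which was below background at 24 h and at least 1.14-fold higher at 4 h. With the block, Kit was lower in KO cells at 4 h and 24 h (−1.002 and −1.14, adjusted p = 0.0467 and 0.0363) and Gab2 at 24 h against 4 h. In WT cells Fyn was higher and Pik3cd lower at 4 h, Lat was lower at 24 h, and Fyn joined Gab2 and Lat as lower at 24 h than at 4 h. With the slide as the block, Csf2ra was higher in KO than in WT cells at 4 h, 24 h and on culture means. Pim3 was higher in KO than in WT cells at 24 h in that fit. The share of all genes that passed with the slide as the block is not given.

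The WT changes of these lists at 4 h also moved without the 4 h array of WT culture 9. The genes called in WT cells at 4 h all passed again, with Fcgr2b at −1.87, Il13 at 3.32, Stat4 at −1.72, Il4ra at −1.35 and Pim3 at 1.46. Ptpn22 passed as well, at 2.44 (adjusted p = 0.0293), and so did Socs6, at 0.57 (adjusted p = 0.0361). Of the ligands 5 passed in place of 1, and their median change was 1.61 in place of 1.24. The same limit from the filter holds here, and the share of all genes that passed in this fit is not given. The JAK kinase gene Jak2 was at 2.62 (adjusted p = 0.0148), against 1.53 (adjusted p = 0.28) with all arrays.

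For each called gene, the 3 genes were taken whose log2 values over the 18 arrays ran most like its own, with Pearson r as the measure and with arrays that share cultures and slides. For Cish they were Inafm1 (r = 0.939), Agfg1 (0.933) and Fosl2 (0.893). Those nearest to Sla were Ccl7 (0.832), Clec4n (0.832) and Etnk1 (0.821). Nearest to Socs5 were Avil (0.846), Ell (0.832) and Hoxb4 (0.828). The Cish neighbours tracked it more closely than those of the other 2 genes did theirs. The nearest gene to Dok2, named after its value was seen, was Bcl2a1d (0.926), an anti-apoptotic BCL2 relative.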

How the data were processed

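The authors deposited linear probe intensity values with no background correction or normalisation, and a second table of log2 values; these differed by at most 0.000556 from quantile normalised log2 intensities. Per the labels' protocols, biotinylated cRNA was made with an Ambion kit for Illumina arrays; scanner software is not given in the sources used here. Here the intensities were corrected by normexp (offset 50), put on the log2 scale and quantile normalised in R 4.3.3 with limma 3.58.1. Detection limits were set by 1504 olfactory and vomeronasal receptor probes (at most a share of 0.01 as high), since the files used here hold no detection p-values, and a probe counted as measurable, and was kept, if 3 or more arrays detected it. A gene was represented by its kept probe with the highest mean. Gene symbols came from the platform annotation, where 34885 of 45281 probes had 1 symbol, 18 several and 10378 none.

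All 18 arrays were fitted with 6 group means, no block, eBayes and two-sided tests, and p-values were adjusted over the 8985 genes by Benjamini-Hochberg. KO was also set against WT after averaging the arrays of each culture. The culture numbers pair arrays: deviations from group means of arrays from 1 culture correlated at 0.134 to 0.625 in all 18 pairs (median 0.361). KO and WT arrays on the same slide correlated at −0.189 to 0.751 in 27 pairs (median 0.328), and 22 of these were over 0.1. Pairs on other slides had a median of −0.234. Each slide held 1 culture per genotype, so culture and slide cannot be told apart within a genotype. The fit with the culture as a block is given beside results that it changes. KO and WT cultures are different cultures, so that this block cannot be used between genotypes. The slide can be used there, and as a block it left the counts of the 10 genes between genotypes as reported. The pipeline was tested on simulated data with errors drawn independently for each array, unlike the correlated arrays here. For WT cells at 4 h it called 6 of 50 genes changed by 0.5 on the log2 scale and 30 of 50 changed by 1. It called 48 of 50 changed by 2, and 6 of 8785 unchanged genes. The 10 genes and the gene lists were chosen with earlier results of these data known. Named from the lists are genes past the threshold and, in some comparisons only, the gene with the largest change. For each called gene its 3 nearest by correlation are named. RefSeq promoters (GRCm38.p6) were matched by symbol. Alternatives were the authors' values, cyclic loess or median scaling in place of quantiles, intensities left uncorrected for background, all probes or a stricter limit for dim ones, slide or culture as a block, a random block, the compared groups alone, array weights, each culture left out, and each of 2 arrays left out.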

Additional observations from a re-analysis of the deposited data

How the results depend on the processing

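The number of the 10 genes past the threshold was the same as reported without background correction, with cyclic loess, with the authors' values, and with other filters on dim probes. In the comparisons in which a gene passed, its value kept its sign under all alternatives. Median scaling moved the median of all genes by up to 0.26 (WT, 24 h against untreated) and gave 0 in place of 1 for WT 24 h against 4 h and for KO against WT untreated, where fits to the compared groups alone gave 0 as well. Fits to the compared groups alone also gave 0 for WT at 4 h, and for KO at 4 h they gave 1 gene, Dok2 in place of Sla. With the replicate block (the culture) the counts were 3 for KO at 4 h, 3 for KO and 4 for WT at 24 h against untreated, and 1 for KO at 24 h against 4 h. The slide as a block gave 2, 3, 4 and 1 for these, and the culture as a random block 5, 3, 4 and 1. The block changed no other count. Array weights gave 3 for KO and 2 for WT at 4 h, 2 and 6 at 24 h against untreated, 2 and 4 at 24 h against 4 h, and 2 for KO against WT at 24 h. Without the 4 h array of WT culture 9 the counts were 2 for KO and 2 for WT at 4 h, 2 for KO at 24 h, and 1 for KO and 2 for WT at 24 h against 4 h; without the 24 h array of KO culture 6 the count for WT at 24 h was 2. Leaving out each culture in turn gave 0 to 2 for KO and for WT at 4 h, 1 for KO and 0 to 2 for WT at 24 h against untreated, 0 to 1 for both at 24 h against 4 h, and 0 to 1 for KO against WT untreated. The share of all genes that passed moved between fits as well. With the culture as a block it was 8.56% in place of 1.83% for WT at 4 h, and 4.65% in place of 0.69% for WT at 24 h. The counts under the other fits are given without that share and are no result about these 10 genes. The causes of these shifts were not tested. Dok1, near the detection limit, is the gene whose level these arrays measure least firmly.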
